A study of Mus musculus with 6 samples.

Results

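The 8 genes *Pecam1*, *Cdh5*, *Cldn5*, *Tek*, *Tie1*, *Kdr*, *Flt1* and *Eng*, all used as markers of endothelial cells, were examined for open chromatin in neural stem cell cultures. They were taken because *Pecam1* had been found with a promoter peak in proliferating cultures only, and the question was whether the other 7 genes shared that pattern. They are 8 of the 21938 protein-coding genes of the annotation. Each gene was described by the peaks that overlap its body plus 20 kb on each side, which gave 56 of the 119719 regions found in at least 1 library. Of these 8 genes, *Pecam1* alone had a promoter peak in every proliferating and in no differentiating library. That peak was intronic, lay 534 bp from the annotated start of an internal noncoding transcript, and was not at a coding start. *Kdr* and *Flt1* had promoter peaks in all 6 libraries, and *Cdh5*, *Cldn5*, *Tek*, *Tie1* and *Eng* had none in any.

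Open chromatin was mapped by ATAC-seq, where a transposase inserts sequencing adapters into accessible DNA. The cultures were grown from the subependymal zone (SEZ) of adult mice, a niche of neural stem cells (NSCs). All 6 libraries came from mice aged 10 weeks in which CRISPR-Cas9 had deleted *Srr2*, an enhancer of *Sox2* (Srr2 del/del), so that both states carried the mutation, and wild-type cultures were not analysed here. Proliferating cultures (PROLIF, replicates 1, 2 and 4) were dissociated neurosphere cells kept for 2 days in vitro on Matrigel with FGF, by the study's methods. Early differentiating cultures (DIFF, replicates 1, 2 and 4) had the same 2 days, then 1 day with no mitogens and 2% fetal bovine serum. The loss of mitogens, the added serum and the extra day therefore came together and cannot be told apart. The study calls the replicates independent, but the labels do not name the animal or founder strain behind each library, so p-values measure the spread between these libraries, which may be partly technical.

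The 6 peak lists held from 60006 (PROLIF replicate 4) to 88039 peaks (DIFF replicate 4). The background pileup, the number of reads that the caller held for an unenriched position, was 2.85 to 3.63 in 5 libraries and 6.01 in DIFF replicate 4, the deepest. Where no peak was called, the signal did not reach the caller's threshold, which does not show closed chromatin. Because a bulk library averages all cells, fewer cells with an open site and less opening per cell cannot be told apart. Of the NSC markers 11 of 11, *Sox2* and *Nes* among them, had a promoter peak in all 6 libraries, beside 64.4% of protein-coding genes. At coding starts alone 10 of the 11 did, beside 63.2% of genes, and *Slc1a3* had none there in PROLIF replicate 2. Of 12 blood and microglia markers 3 had one in all 6 and 7 had none in any, beside 25.4% of genes with none. Of 11 mural cell markers 7 (63.6%) had one in all 6, close to the share of all genes, and 0 lacked one throughout. A promoter peak is thus common, and such counts alone do not identify a cell type.

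Endothelial cells line blood vessels, and vessels of the SEZ lie close to its stem cells. The proteins of the 8 genes fall into junction and adhesion molecules (PECAM1, VE-cadherin from *Cdh5*, claudin 5 from *Cldn5*) and receptors (TIE2 from *Tek*, TIE1, the VEGF receptors encoded by *Kdr* and *Flt1*, and endoglin from *Eng*). Many endothelial genes are driven by ETS factors, some together with SOX, GATA or FOX factors, through enhancers that often lie in introns or upstream of the gene.

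The sequences of the regions on which the comparison turned are printed here, on the plus strand of GRCm38 and read from the reference genome. The first is the PROLIF-only region near an internal noncoding start of *Pecam1*, and the others are the PROLIF-only regions of *Pecam1*, *Cdh5* and *Flt1* away from coding starts. The *Cdh5* and *Flt1* stretches are the 201 bases around the summit of the strongest peak. Capitals mark exact matches, on either strand, to any of 12 short motifs, which are described with their shares further on.
Pecam1 region 3 (chr11:106663860-106664097): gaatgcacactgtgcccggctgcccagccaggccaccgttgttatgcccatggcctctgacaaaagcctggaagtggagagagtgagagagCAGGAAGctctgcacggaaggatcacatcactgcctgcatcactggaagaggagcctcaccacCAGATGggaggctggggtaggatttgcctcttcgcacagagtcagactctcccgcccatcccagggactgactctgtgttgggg
Pecam1 region 7 (chr11:106741365-106741631): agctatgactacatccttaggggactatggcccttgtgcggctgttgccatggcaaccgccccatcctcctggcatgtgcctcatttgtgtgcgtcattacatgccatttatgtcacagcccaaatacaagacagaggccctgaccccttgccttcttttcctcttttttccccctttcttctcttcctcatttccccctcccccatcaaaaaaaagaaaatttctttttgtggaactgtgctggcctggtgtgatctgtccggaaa
Cdh5 region 5 (chr8:104095689-104095889): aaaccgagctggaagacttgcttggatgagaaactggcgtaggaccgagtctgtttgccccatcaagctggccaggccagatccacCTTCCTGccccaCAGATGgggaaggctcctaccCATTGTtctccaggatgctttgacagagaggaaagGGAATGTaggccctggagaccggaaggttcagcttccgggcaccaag
Flt1 region 8 (chr5:147620258-147620458): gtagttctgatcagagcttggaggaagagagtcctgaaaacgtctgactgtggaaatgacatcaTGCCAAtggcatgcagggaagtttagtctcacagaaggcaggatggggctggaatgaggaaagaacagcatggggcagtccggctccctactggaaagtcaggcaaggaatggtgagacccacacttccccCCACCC
Flt1 region 10 (chr5:147633798-147633998): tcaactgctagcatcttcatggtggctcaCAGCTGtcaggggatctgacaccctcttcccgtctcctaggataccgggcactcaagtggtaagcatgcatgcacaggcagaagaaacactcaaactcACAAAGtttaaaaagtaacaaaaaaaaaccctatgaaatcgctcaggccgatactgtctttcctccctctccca

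*Pecam1* (ENSMUSG00000020717.19) encodes an adhesion protein of endothelial junctions that platelets and leukocytes also carry. The gene lies on chromosome 11 from 106654217 to 106750628, on the minus strand. A promoter peak was counted where a peak came within 3 kb of the start of any annotated transcript. Such a peak is said below to lie at that start, whether or not it covers it. For *Pecam1* this peak is region 3, 238 bases long with a GC content of 59.2%, in an intron of the coding transcripts. The peak lay 534 bp from the start of Pecam1-208, a transcript annotated as a retained intron, and 50849 bp from the nearest start of a protein-coding transcript. The coding starts themselves had no peak in any library. The nearest region to the start of Pecam1-203 was 22080 bp away, and the nearest to that of Pecam1-201 was 8997 bp away. When starts of coding transcripts only were counted, *Pecam1* had no promoter peak in any of the 6 libraries. By that count 41 of 21853 genes (0.188%) were PROLIF-only, 0.329% were DIFF-only, 63.2% had a promoter peak in all 6 libraries and 26.6% had none.

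The peak at region 3 was of middling rank in all 3 PROLIF libraries. Its percentile, the share of peaks in the same list that it outranked by p-value, was 51.6 in PROLIF replicate 1, 44.0 in replicate 2 and 55.0 in replicate 4. The fold enrichment over the local background was 6.30, 5.33 and 6.24, which corresponded to 24, 20 and 23 reads at the summit. The 3 PROLIF libraries thus lay close together, and no DIFF library had a peak there. The weakest peaks called anywhere had a pileup of 10 reads in each PROLIF library, and of 11, 10 and 15 reads in DIFF replicates 1, 2 and 4. Since this pattern chose the gene set, it is given as a description with no test. Over all protein-coding genes, 50 (0.228%) had a promoter peak in every PROLIF and no DIFF library, and *Pecam1* was number 6 among them by its lowest percentile. Of these 50 genes 7 (14%), with *Pecam1* among them, had no peak at a coding start, and 40 kept the pattern there.

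The *Pecam1* window held 6 other regions, which did not all follow region 3. Regions 2, 4 and 5, all intronic, had a peak in all 6 libraries. Region 2 (chromosome 11, 106658007 to 106658583) stood at percentiles 72.6, 73.1 and 61.5 in the PROLIF libraries and at 80.4, 78.7 and 80.0 in the DIFF libraries, so that every DIFF library ranked it higher. The region is in the same gene, and its direction was opposite to that of region 3. Region 4 (106674426 to 106675461) was the strongest of the window in 5 of the 6 libraries and its values overlapped, from 69.5 to 85.9 in PROLIF and from 74.7 to 86.7 in DIFF. Region 5 (106678034 to 106678342) ranged from 20.7 to 41.1 in PROLIF and from 14.8 to 68.4 in DIFF, where replicate 2 was far below the other two.

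Region 7 was the second PROLIF-only region of the window. It lay in the intron 8997 bp inside the start of Pecam1-201, and 9595 bp from a start of the neighbouring gene *Milr1*. Its percentiles were 44.6, 3.73 and 39.6 and its pileups 21, 11 and 18 reads in PROLIF replicates 1, 2 and 4. In replicate 2 the peak was therefore near the bottom of the list, within 1 read of the weakest pileup called. Region 6 (106737345 to 106737534) had peaks in PROLIF replicates 1 and 4 and in DIFF replicates 1 and 4, and region 1 a peak in DIFF replicate 2 only. The window held 6, 5 and 6 peaks in the PROLIF libraries and 4 in each DIFF library. Just outside it the nearest regions lay 26214 bp beyond one end of the gene, with a peak in 4 libraries, and 28387 bp beyond the other, with a peak in all 6.

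**Figure D1:**
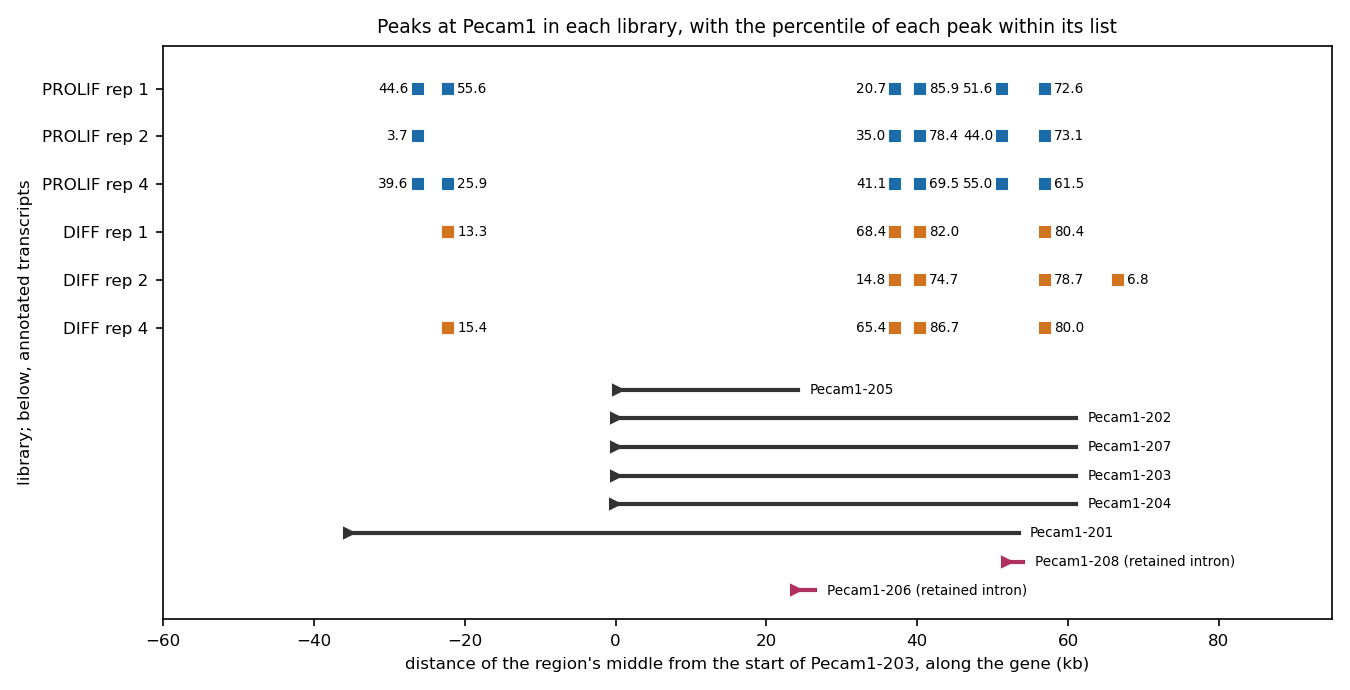
Peaks at *Pecam1* in each library (rows, PROLIF blue and DIFF orange) against the distance along the gene from the start of Pecam1-203 (kb). Numbers are the percentile of the peak within its list, lines below are annotated transcripts with an arrowhead at the start, and the only peaks within 3 kb of a start are the PROLIF peaks beside the retained-intron transcript Pecam1-208, at percentiles of 44.0 to 55.0.

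No promoter peak was called in any library for 5 of the other 7 genes, as for 25.4% of protein-coding genes. *Cdh5* (ENSMUSG00000031871.9, chromosome 8, 104101625 to 104144511, plus strand) encodes the cadherin that holds endothelial cells together. The nearest region to its coding starts was 3774 bp away, the closest miss of the 3 kb limit. *Cldn5* (ENSMUSG00000041378.2, chromosome 16, 18776847 to 18778262, plus strand) encodes a tight junction protein of the blood-brain barrier, and the nearest region was 19956 bp from its start. Neither junction gene thus had a called peak at its start in either state.

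The receptor genes *Tek*, *Tie1* and *Eng* were alike in this. *Tek* (ENSMUSG00000006386.15, chromosome 4, 94739289 to 94874976, plus strand) encodes the angiopoietin receptor, and its nearest region lay 5920 bp from a coding start. *Tie1* (ENSMUSG00000033191.14, chromosome 4, 118471191 to 118490061, minus strand) encodes a related receptor that pairs with TIE2, and its nearest region lay 11976 bp away. *Eng* (ENSMUSG00000026814.16, chromosome 2, 32646595 to 32682669, plus strand) encodes a co-receptor for BMP and TGF-beta ligands, and its nearest region was 5244 bp from the start of Eng-204 and 14600 bp from that of Eng-202. The 4 regions at promoters in the *Eng* window belonged to its neighbours *Ak1* and *Fpgs*.

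*Kdr* and *Flt1* had promoter peaks in all 6 libraries, as did 64.4% of protein-coding genes. *Kdr* (ENSMUSG00000062960.10, chromosome 5, 75932827 to 75978458, minus strand) encodes the main signalling receptor for VEGFA. Its promoter peak covered the coding start and stood at percentiles 75.8, 71.5 and 54.2 in the PROLIF libraries. In the DIFF libraries the percentiles were 58.0, 61.7 and 71.9. The states overlapped, with means of 67.2 ± 11.4 and 63.9 ± 7.20 (SD, n = 3 each), and the difference of -3.31 had a p of 0.8 in a two-sided exact permutation test over the 6 libraries. The pileup at the summit ranged from 23 reads in PROLIF replicate 4 to 51 in DIFF replicate 4.

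*Flt1* (ENSMUSG00000029648.13, chromosome 5, 147561604 to 147726011, minus strand) encodes a VEGF receptor that binds its ligand tightly and signals weakly. Its strongest promoter peak stood at percentiles 82.6, 84.3 and 80.8 in PROLIF and at 72.5, 79.7 and 81.4 in DIFF. In 3 of the 6 libraries this was the peak at a coding start, and in the other 3 it was region 11, at an internal noncoding start. The mean was 82.6 ± 1.74 in PROLIF and 77.8 ± 4.71 in DIFF (SD, n = 3 each), a difference of -4.73 with p = 0.2 by the exact permutation test. At coding starts alone the difference was -2.95 with p = 0.5 by the same exact test. With 3 libraries against 3 the smallest p is 0.1, so neither receptor could have passed a threshold of 0.05.

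The 8 genes divided in the same way by the CpG content of their starts. CpG content was the ratio of observed to expected CpG within 500 bases each side of a coding start. In every gene, the genes compared included, the coding start with the highest ratio was used. In the 8 genes this was the start at the edge of the gene record. The ratio was 0.811 at *Flt1* and 0.665 at *Kdr*. Both were within the quartiles (0.614 to 0.858) of genes with a coding promoter peak in all 6 libraries. The 6 genes with no peak at a coding start had lower ratios, from 0.244 at *Cdh5* to 0.508 at *Cldn5*. The median was 0.185 over all genes with no peak there, with quartiles of 0.120 and 0.288, so that of these 6 only *Cdh5* lay inside that range. The sequences just upstream of 3 receptor genes are printed, those of the 2 genes with promoter peaks and that of *Tek*. Among the 6 genes matched in the RefSeq table, *Tek* had the fewest CG there. They are the 250 bases before the RefSeq start on GRCm38.p6, written in the direction of transcription, with each CG in capitals. *Flt1* has 23 of them, *Kdr* 16 and *Tek* 2. The other matched genes, which lack a peak, have 12 (*Cldn5*), 6 (*Tie1*) and 4 (*Eng*), so that *Cldn5* is close to *Kdr*. *Pecam1* and *Cdh5* were not among the 6 of 8 genes matched in the RefSeq table.
Flt1 (chr5:147726012-147726261, minus strand): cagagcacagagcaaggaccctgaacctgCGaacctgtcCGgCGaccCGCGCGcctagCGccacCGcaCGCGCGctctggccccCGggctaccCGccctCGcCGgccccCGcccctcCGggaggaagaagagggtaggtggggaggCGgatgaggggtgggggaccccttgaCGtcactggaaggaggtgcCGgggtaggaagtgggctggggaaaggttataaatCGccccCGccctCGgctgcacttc
Kdr (chr5:75978456-75978705, minus strand): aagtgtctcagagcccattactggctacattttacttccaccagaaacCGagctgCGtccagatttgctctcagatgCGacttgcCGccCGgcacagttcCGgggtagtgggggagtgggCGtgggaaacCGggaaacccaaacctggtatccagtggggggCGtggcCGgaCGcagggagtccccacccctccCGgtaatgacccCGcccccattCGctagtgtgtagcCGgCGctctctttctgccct
Tek (chr4:94739039-94739288, plus strand): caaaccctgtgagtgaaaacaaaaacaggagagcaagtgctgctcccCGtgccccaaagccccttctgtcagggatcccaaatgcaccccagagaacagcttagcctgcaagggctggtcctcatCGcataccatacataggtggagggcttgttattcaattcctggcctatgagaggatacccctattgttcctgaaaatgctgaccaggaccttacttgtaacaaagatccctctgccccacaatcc

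**Figure D2:**
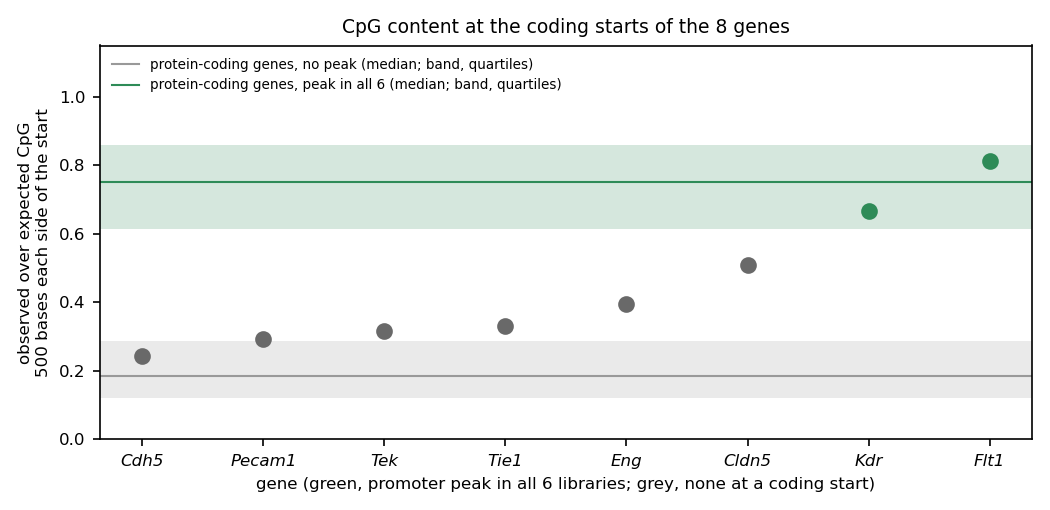
Ratio of observed to expected CpG within 500 bases each side of the coding start with the highest ratio, for each of the 8 genes (points). Lines and bands are the median and quartiles of protein-coding genes with a promoter peak in all 6 libraries (green) and in none (grey), and the genes with promoter peaks, *Kdr* and *Flt1*, have the highest ratios, 0.665 and 0.811.

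Over whole windows, peaks at starts included, the numbers of peaks in the states overlapped. The 7 genes other than *Pecam1* had 36, 27 and 25 peaks in PROLIF replicates 1, 2 and 4 and 30, 19 and 31 in DIFF replicates 1, 2 and 4. The means were 29.3 ± 5.86 and 26.7 ± 6.66 (SD, n = 3 each), and the difference of -2.67 had p = 0.7 in the two-sided exact permutation test. DIFF replicate 2 was the lowest library, and the whole lists went the other way, with a mean difference of 6868 peaks more in DIFF and p = 0.5 by the same exact test.

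Gene by gene, *Flt1* had the most peaks, 15, 14 and 11 in PROLIF and 11, 7 and 12 in DIFF (difference -3.33, exact p = 0.3). *Cdh5* had 8, 6 and 5 against 4, 4 and 5 (difference -2, exact p = 0.2). In both genes the states touched or overlapped. The other 5 genes differed by less than 1 peak on average, with exact p values from 0.4 for *Cldn5* to 1 for *Kdr*. *Cldn5* had no peak in any PROLIF library and a single weak one in DIFF replicates 1 and 4. *Kdr* had no region in its window but its promoter, which replicate 4 of each state called as 2 peaks. Per 100 kb of window the density ran from 0.805 peaks at *Cldn5* to 6.43 at *Cdh5*, with 3.54 at *Pecam1*.

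**Figure D3:**
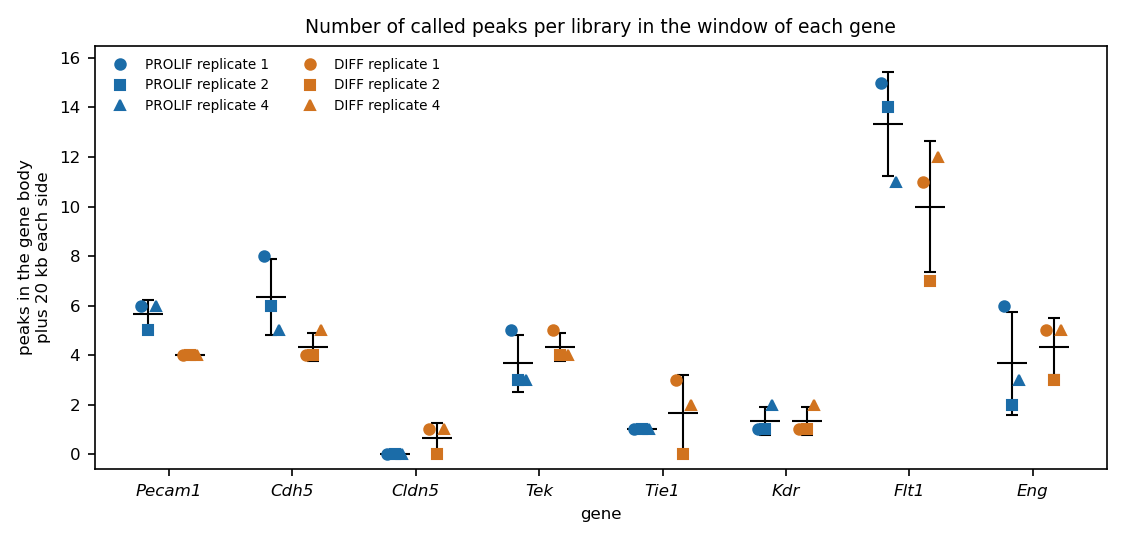
Number of called peaks in the body of each gene plus 20 kb each side, per library (PROLIF blue, DIFF orange, symbols for replicates 1, 2 and 4), with the mean and SD of 3 libraries in black. The states share values or overlap in the 7 genes other than *Pecam1*, and *Pecam1* has 5 or 6 in PROLIF and 4 in every DIFF library.

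By region, 17 of the 56 (30.4%) had a peak in all 6 libraries, beside 33.5% of all regions. PROLIF-only regions numbered 5 (8.93%), beside 1.79% of all regions. Of the 5, 2 are those of *Pecam1* and belong to the pattern that chose the set, which left 3 of 49 (6.12%) in the other 7 windows, 1 at *Cdh5* and 2 at *Flt1*. DIFF-only regions numbered 0, beside 3.48% of all regions. A further 16 regions had a peak in 1 library. Most of the 56 lay in introns (28) or in the flanks (16). Only 2 lay at a coding start of the gene, those of *Kdr* and *Flt1*, and 4 lay at a noncoding start, 3 of them in *Flt1*.

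*Cdh5* region 5 (chromosome 8, 104095577 to 104096040) lay 5585 bp upstream of the gene's start. Its fold enrichment was 9.62, 4.93 and 5.90 and its percentile 84.1, 52.8 and 62.4 in PROLIF replicates 1, 2 and 4. The pileup was 81 reads in replicate 1, and 31 and 33 in replicates 2 and 4. All 3 PROLIF values were well above the weakest call, and no DIFF library had a peak. It is the sequence printed above with matches to an ETS motif and an E-box, as at region 3 of *Pecam1*.

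The 2 PROLIF-only regions of *Flt1* lay within the gene. Region 8 (chromosome 5, 147620135 to 147620585) was intronic, at percentiles 72.1, 61.5 and 51.2, with 42, 28 and 22 reads. Region 10 (147633757 to 147634330) lay 88 bp from the start of Flt1-204, a noncoding transcript, and 91658 bp from the nearest coding start. Its percentiles were 70.2, 75.2 and 46.7, with 40, 43 and 20 reads. Region 10 thus resembled region 3 of *Pecam1* in position, at an internal noncoding start, and *Flt1* was not counted as PROLIF-only because its coding start and region 11 were open in both states. In both *Flt1* regions PROLIF replicate 4 was the lowest library.

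Among the 17 regions with a peak in all 6 libraries, 3 ranked higher in every PROLIF than in every DIFF library and 4 the reverse, beside 11.7% and 21.1% of such regions. The widest separation was at *Tek* region 5 (chromosome 4, 94752326 to 94753042), in an intron 12808 bp inside the start of Tek-201. It stood at percentiles 95.4, 94.8 and 94.8 in PROLIF and at 73.5, 49.3 and 70.8 in DIFF. The fold enrichment was 15.8, 15.3 and 14.3 against 8.42, 6.06 and 7.13, so the states were apart on both scales. The region was picked from the 17 for this separation. With 3 against 3, full separation fixes the exact permutation p at 0.1, so that p is no test of the region. *Tek* thus had its strongest open region inside an intron, with no promoter peak in any library. The 201 bases around its summit hold a CAGCTG E-box, in capitals.
Tek region 5 (chr4:94752642-94752842): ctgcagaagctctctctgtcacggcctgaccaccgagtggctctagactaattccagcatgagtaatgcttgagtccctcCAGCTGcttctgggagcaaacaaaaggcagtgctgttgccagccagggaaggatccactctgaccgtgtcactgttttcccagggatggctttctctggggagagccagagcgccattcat

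*Cdh5* region 6 (chromosome 8, 104107029 to 104107533), also intronic, was at 66.1, 50.8 and 65.6 in PROLIF and at 41.4, 45.3 and 49.9 in DIFF. The lowest PROLIF and the highest DIFF library were less than 1 percentile apart. In the other direction, *Cdh5* region 4, in the upstream flank, was at 56.8, 56.9 and 42.1 in PROLIF and at 59.8, 70.1 and 69.6 in DIFF. Regions 4, 5 and 6 of *Cdh5*, within 20 kb of each other, hence showed all 3 behaviours. *Flt1* region 3 and *Eng* region 6, the latter at a start of *Fpgs*, were also higher in every DIFF library.

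The third region higher in PROLIF, *Flt1* region 6, was masked as repeat over 100% of its length in the reference, and its values are not reported here.

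**Figure D4:**
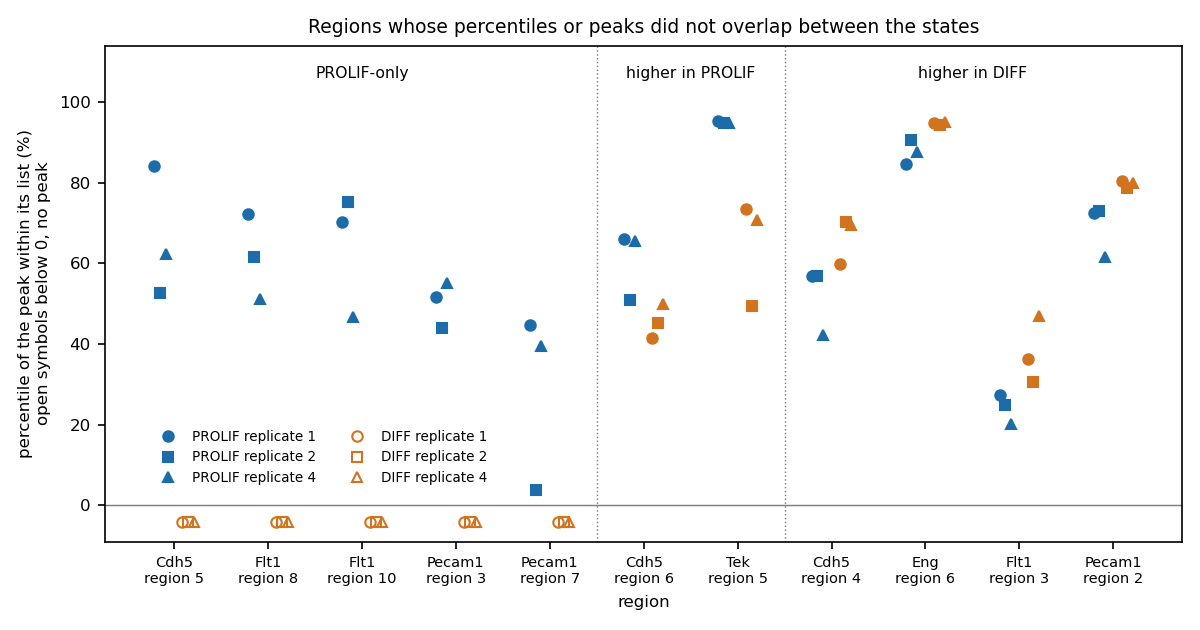
Percentile of the peak within its list, per library (PROLIF blue, DIFF orange, symbols for replicates 1, 2 and 4), for the regions in the 8 windows in which the states did not overlap, without *Flt1* region 6. Open symbols below 0 stand for no peak. In the PROLIF-only regions all values but one (3.73 at *Pecam1* region 7) are between 39.6 and 84.1, and *Tek* region 5 shows the widest gap among regions shared by all libraries.

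Exact matches to 12 short motifs were sought on either strand in the 201 bases centred on each summit. TGACTCA is the site of AP-1, which acts downstream of mitogens. CAGGAAG is a site of ETS factors, and AACAGGA, which can overlap it, joins a FOX and an ETS site. GATA factors were represented by AGATAA. For SOX factors the letters were ACAAAG and ACAATG. Factors with a basic helix-loop-helix were represented by the E-boxes CAGCTG and CAGATG. The others were TTGGCA for NFI, TGTGGT for RUNX, ACATTCC for TEAD and CCACCC for KLF factors. TGACTCA occurred in 27.8% of all PROLIF-only regions, against 5.76% of all regions. It was in none of the 5 PROLIF-only regions at the endothelial genes, although 7 of their 56 regions (12.5%) held it. Each of these 7 had a peak in only 1 to 3 libraries. CAGGAAG was in 2 of the 5, *Pecam1* region 3 and *Cdh5* region 5, and in 18.1% of all PROLIF-only regions. The same 2 regions held CAGATG, which was in 28.4% of all PROLIF-only regions. CAGCTG was in 18 of the 56 regions (32.1%) and in 19.6% of all regions. Region 7 of *Pecam1* held none of the 12. A match is a description of letters and not of a bound factor, and no match says only that these letters are not in the window.

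A wider list of 59 other endothelial genes was read in the same way. The name is broad here, since 17 of the 59 are vascular ligands and receptors, and not all are particular to endothelial cells. Of these, 39 (66.1%) had a promoter peak in all 6 libraries, beside 64.4% of protein-coding genes, and 7 (11.9%) had none, beside 25.4%. None had the PROLIF-only pattern of *Pecam1* (0.228% of all genes). The reverse was seen in 1 gene, beside 0.374% of all genes. This was *Lyl1*, a transcription factor of blood and endothelial cells, at percentiles 15.8, 13.9 and 33.2 in DIFF replicates 1, 2 and 4, so its peaks were in the weaker part of each list. The other 12 genes had a peak in some libraries of either state or both.

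By role, the vascular ligands and receptors had a promoter peak in all 6 libraries in 14 of 17 genes, led by *S1pr1* (96.4 to 98.6 over the 6 libraries), a receptor for sphingosine 1-phosphate, and *Vegfc* (90.6 to 95.4), a ligand of lymphatic vessels. The transcription factors had one in 8 of 13, led by *Klf2* (96.6 to 98.2), a factor induced by blood flow, and *Ets1* (92.4 to 97.8). These are genes that other cells use as well. Barrier genes had one in 4 of 6, led by *Lsr* (92.0 to 95.1), a protein of tricellular junctions, and *Mfsd2a* (91.3 to 96.9), a lipid transporter. Secreted proteins and enzymes had one in 6 of 9, led by *Vwf* (82.8 to 92.5), which encodes von Willebrand factor, and *Ece1* (68.1 to 87.1). The *Vwf* peak, like that of *Pecam1*, lay at a noncoding start, and no library had a peak at a coding start of *Vwf*. The same held for *Notch4* among the receptors. At coding starts 36 of the 59 genes had a promoter peak in all 6 libraries, beside 63.2% of genes, and 9 had none. The surface and junction genes, the class of *Pecam1*, *Cdh5* and *Cldn5*, had one in 7 of 14, led by *Jam2* (94.2 to 97.7) and *Ptprb*. Of the 14, 4 had none in any library. At coding starts 6 of the 14 had one in all 6 libraries. *Selp*, named after its values were seen, had one at 59.2 to 85.4, but at a coding start only in DIFF replicate 4, at 10.7. *Ptprb* was at 97.2 and 98.8 in replicate 1 of PROLIF and DIFF and at 66.7 to 75.2 in the other 4 libraries, so both replicate 1 libraries stood apart. The 4 without a peak were *Icam2*, *Emcn*, *Sele* and *Plvap*.

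Among the 39 genes with a promoter peak throughout, 6 ranked higher in every PROLIF library, beside 4.79% of such genes, and 4 higher in every DIFF library, beside 26%. The median promoter percentile of the 39 genes over the libraries was 73.0, against 87.0 for all genes with such peaks. The shares beside the counts thus come from promoters of higher rank, and the effect of rank on them was not tested. *Cd93*, which encodes a surface protein of endothelial and myeloid cells, moved most toward PROLIF, from 78.3, 59.0 and 67.7 to 21.4, 9.14 and 28.0 in DIFF. *Erg*, an ETS factor of endothelial cells, followed, from 81.2, 79.8 and 78.4 to 50.2, 41.1 and 60.6. The others were *Tal1*, *Clec14a*, *Lsr* and *Vwf*. Toward DIFF they were *Mmrn2*, from 35.2, 24.9 and 8.77 to 79.3, 66.9 and 75.4, with *Ets1*, *Efnb2* and *Slc2a1*. Apart from *Lsr*, *Vwf* and *Ets1*, these genes and the 4 surface genes without peaks were named after their values were seen. *Mmrn2* encodes a matrix protein that binds CD93, and the promoter percentiles of the 2 genes went in opposite directions. All 10 kept a promoter peak in both states, that of *Vwf* at a noncoding start.

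**Figure D5:**
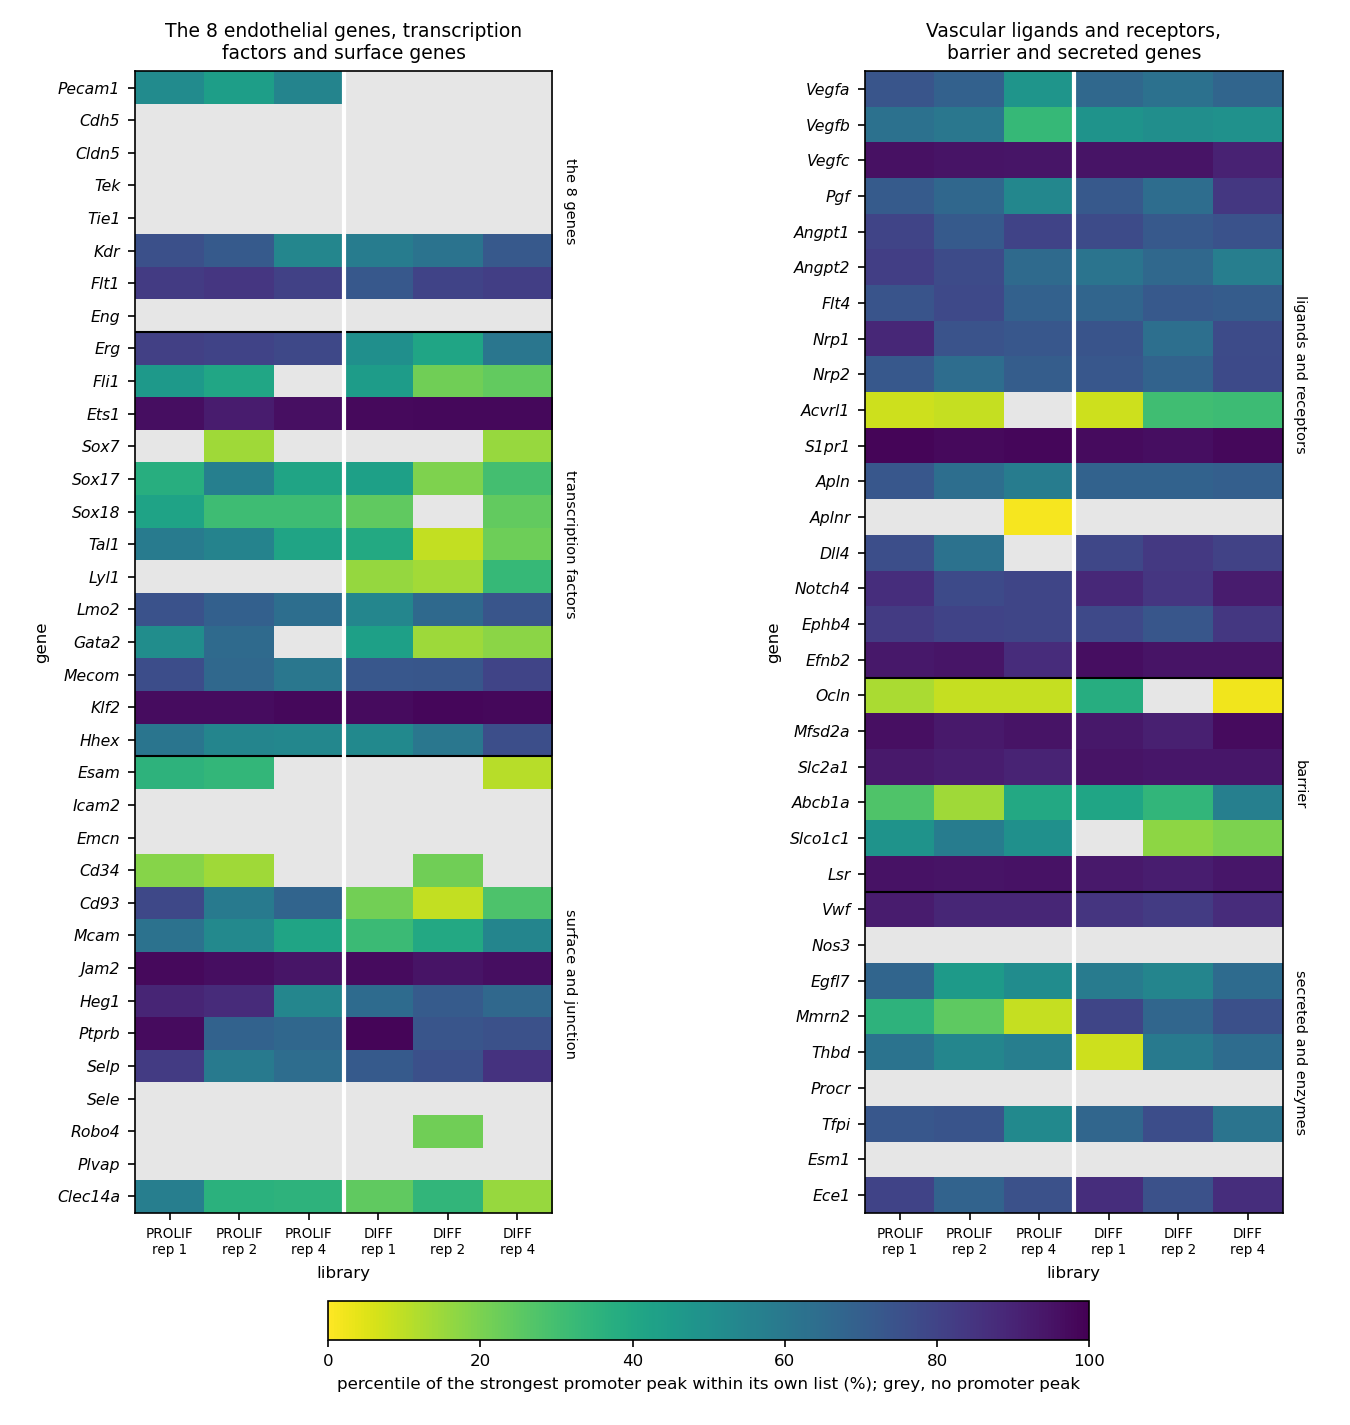
Percentile within its list of the strongest promoter peak of each gene (rows) in each library (columns), for the 8 genes and 59 other endothelial genes grouped by role, with grey for no promoter peak. *Pecam1* has values of 44.0 to 55.0 in the PROLIF columns and none in the DIFF columns, and *Lyl1* is the only gene shown with the reverse.

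The 5 protein-coding genes whose promoter percentiles over the 6 libraries were nearest to those of *Pecam1*, by Euclidean distance with 0 for no peak, were *Ccdc188* (7.34), *Olfr549* (7.95), *Tlr7* (11.7), *Fcgr4* (15.7) and *Kcnj14* (18.6). All 5 were PROLIF-only at coding starts too, unlike *Pecam1*, as were 40 of the 50 genes with a PROLIF-only promoter. None is an endothelial marker of the lists used here, which hold 59 genes beside the 8, of 21938 protein-coding genes. The 5 were picked by these same percentiles, so they are given as a description with no test.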

How the data were processed

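The 6 ATAC-seq libraries, 3 PROLIF and 3 DIFF, all Srr2 del/del, were grouped by the state and replicate number in the labels. The labels and the methods give 2 days in vitro for PROLIF, whereas the series' design text gives 3, the design text and the treatment protocol in the labels describe proliferating cells as neurospheres in EGF and FGF, where the methods describe them on Matrigel with FGF, and the treatment label names RNA although the libraries are genomic DNA. The authors removed adapters (Cutadapt), trimmed reads (Trimmomatic) and aligned them with Bowtie2 to GRCm38 (mm10). Duplicates were marked with Picard, and MACS2 called narrow peaks for each library on its own, with no model and a false discovery rate of 0.05. Tool versions, the extension of reads, any transposase shift and any excluded regions are not given in the sources used here, and each can move peak edges and calls.

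The deposited lists give positions, a score, a fold enrichment deposited by the authors, which is a ratio to the background around the peak, and deposited −log10 p and q values. Libraries were compared by percentile, the share of weaker peaks by p within the same list, with folds and pileups given beside it as a description. The caller's Poisson model derives the fold and the p of a peak from its pileup and its background, so both were recovered from the deposited fold and p, and at least 99.99% of pileups came out whole within 0.05 reads. Read totals were not used here. Peaks outside chromosomes 1 to 19, X and Y (150 to 311 per list) were left out.

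Annotation was GENCODE M21 for GRCm38. Regions were peaks merged where they overlapped by 1 bp or more. State-only regions and promoters had peaks in all 3 libraries of a state and in 0 of the other 3. Tests were two-sided exact permutations of the state labels. The promoter pattern calls and the recovery of pileups were tested on simulated data with known answers, and the merging of peaks was not. The members and gene lists were chosen with earlier results of these data known. Named were all 8 genes, state-only genes of the wider list, the 2 genes of each class with the highest lowest percentile, and the 5 genes nearest to *Pecam1*. Alternatives were a stricter q of 0.01, lists of equal length, the strongest 20000 peaks, promoters of 1 kb, the start of the gene record only, windows of 5 or 50 kb, leaving out promoters of other genes, peaks that cover at least 50% of a region, each library left out in turn, the replicate block and, added after seeing the data, coding starts only. Values were computed in Python 3.11.15 with pandas 2.3.3, numpy 2.4.6 and scipy 1.17.1. Sequences were read with pysam 0.24.0 and samtools 1.23.1, and figures drawn with matplotlib 3.10.9.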

Additional observations from a re-analysis of the deposited data

How the results depend on the processing

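The PROLIF-only promoter of *Pecam1* depended on which starts were counted. It was found in 0 of the 8 genes when the start of the gene record or, chosen after seeing the data, starts of coding transcripts only were used, which leave out Pecam1-208, and in 0 with the strongest 20000 peaks. With those 20000 peaks 1 of the 8 genes kept a promoter peak in all libraries, PROLIF-only regions numbered 0, and of the 59 other genes 12 had a promoter peak throughout, 31 had none, 1 was PROLIF-only and 0 DIFF-only. That DIFF-only count was also 0 with lists of equal length (59792 peaks) and with promoters of 1 kb. Other genes with no promoter peak numbered 15 with 1 kb and 15 with the gene record's start. In shortened lists the percentiles were ranked anew, so their differences are not on the scale of the full lists. The *Flt1* promoter difference was then -23.3 with the strongest 20000 peaks (exact permutation p = 0.2). With lists of equal length it was -7.79 (exact permutation p = 0.2), and that of *Kdr* was -8.50 (exact permutation p = 0.3). The differences in window counts, none of which passed a test, changed sign or fell to 0 in several settings. With the strongest 20000 peaks they were 0 for *Cdh5*, *Cldn5*, *Tie1* and *Eng* and -0.667 for *Tek*. With lists of equal length they were 0 for *Cldn5* and -0.333 for *Tie1*. Windows of 5 kb gave 0 for *Cldn5* and *Eng*, and windows of 50 kb gave -0.667 for *Cldn5* and *Tek* and 3 DIFF-only regions. Without promoters of other genes the *Eng* difference was 0. The causes of these changes were not tested.

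Leaving out each library in turn, the difference over the 7 genes ranged from -4.83 to 1.17, positive at 0.667 without PROLIF replicate 1 and at 1.17 without DIFF replicate 2. For the *Kdr* promoter it ranged from -9.78 (without PROLIF replicate 4) to 0.992 (without PROLIF replicate 1) and for the *Flt1* promoter from -6.48 to -2.05 (without DIFF replicate 1), for the *Flt1* window from -4.5 to -1.83 (without DIFF replicate 2), for *Cdh5* from -2.67 to -1.17 and for *Tek* from 0.333 to 1.33 (both last without PROLIF replicate 1), for *Eng* from -0.167 (without PROLIF replicate 2) to 1.83, and for *Tie1* from 0 (without DIFF replicate 1) to 1.5. PROLIF-only regions ranged from 5 to 6 and DIFF-only regions from 0 to 2 (2 without DIFF replicate 2). Both states carry the replicate numbers 1, 2 and 4, but deviations from the state mean over 40102 regions correlated at only 0.0606, 0.158 and 0.0138 between same-numbered libraries and at -0.116 to 0.0592 between others, so the numbers were not taken as pairs. At the *Ptprb* promoter both replicate 1 libraries nevertheless stood apart from the rest. Whether same-numbered libraries share an origin was not tested, and the labels do not say. With the replicate block, which asks for a difference in 2 of the 3 pairs, PROLIF-only regions numbered 8 and DIFF-only regions 2, and with sign flips the smallest p is 0.25. The replicate number gave no other changed call.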

Other observations

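Mural cells, the pericytes and smooth muscle cells that wrap vessels, gave a further vascular list. Of its 11 genes, 7 (63.6%) had a promoter peak in all 6 libraries, beside 64.4% of protein-coding genes, and 4 had one in some. Of the 7, 1 ranked higher in every PROLIF library and 2 in every DIFF library, beside 4.79% and 26% of genes with such peaks, and the other 4 overlapped. The median promoter percentile of the 7 genes was 68.7, against 87.0 for all genes with such peaks. Those named here were chosen after their values were seen. *Myh11*, a smooth muscle myosin, ranked higher in every PROLIF library, at percentiles 84.8, 76.6 and 83.1 against 69.6, 72.3 and 69.8 in DIFF. *Vtn*, which encodes vitronectin, was at 86.0, 82.9 and 81.6 in PROLIF and at 87.3, 89.8 and 91.9 in DIFF. *Notch3*, a receptor of mural and neural stem cells, was at 66.3, 62.1 and 60.8 in PROLIF and at 67.8, 72.4 and 83.8 in DIFF. None of the 11 had a state-only promoter.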
